A study of Mus musculus with 12 samples.

Results

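Acan, Bcan, Ncan, Vcan, Ptprz1, Cspg5, Tnc, Tnr, Hapln1 and Cd44 are the chondroitin sulfate proteoglycans, tenascins, link protein and hyaluronan receptor usually named for the glial scar. All probe sets that the platform annotation gives to one of these symbols alone were taken, which made 29 of the 45101 probe sets and 10 of the 18193 genes on the Affymetrix Mouse Genome 430 2.0 GeneChip. RNA came from astrocytes that laser capture microdissection (LCM) took out of sections of the lumbar spinal cord, all from male mice. The SOD1 G93A mice, a model of amyotrophic lateral sclerosis (ALS), carried a human SOD1 transgene with the G93A change, which is driven by the human SOD1 promoter and so is not limited to astrocytes. The controls were non-transgenic (NTg) littermates, and the B6SJL-Tg(SOD1 G93A)1Gur/J line had been backcrossed to C57Bl/6 J Ola/Hsd mice. Mice were taken at 90 days (symptomatic) or 120 days (late-stage), with 3 mice and 3 GeneChips in each of the 4 groups, and the labels give 1500 astrocytes captured from each animal.

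Aggrecan, brevican, neurocan and versican (Acan, Bcan, Ncan and Vcan) are lecticans, secreted core proteins that carry chondroitin sulfate chains and bind hyaluronan at one end and tenascins at the other. Link protein (Hapln1) locks the lectican to hyaluronan, tenascin-R (Tnr) and tenascin-C (Tnc) crosslink lecticans, and this lattice forms the perineuronal nets around many neurons. After injury reactive astrocytes deposit chondroitin sulfate proteoglycans that hinder axon growth, and Cd44, which binds hyaluronan at the cell surface, is carried by reactive astrocytes, microglia and leukocytes.

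Values are linear MAS5 signal intensities scaled to a trimmed mean of 100 on each GeneChip, and levels of different probe sets cannot be set against each other. Array medians were 24.9 to 30.4 at 90 days, 27.9 to 37.1 in NTg mice at 120 days and 38.8 to 55.2 in SOD1 G93A mice at 120 days. SOD1 G93A replicate 3 at 120 days stood apart, with a mean correlation of 0.848 with its group against 0.885 for the other 2. All 15 astrocyte markers were measured, and their sum was 16681.1 to 21678.8 in NTg and 19816.0 to 32799.4 in SOD1 G93A mice at 120 days. These sums hold Gfap, which is also a marker of reactive astrocytes. It was at 102.3 to 231.4 in NTg and 3253.3 to 5365.1 in SOD1 G93A mice of 120 days. At that age 3 of the 15, Gfap among them, were higher in limma (adjusted p under 0.05) and 0 lower, beside 4.14% and 4.47% of all genes tested. The glutamate transporter Slc1a2, which did not pass, was at 2418.7 to 3299.0 in NTg and 3048.0 to 4071.4 in SOD1 G93A mice at 120 days. The material also held transcripts of other cells. Microglial markers summed to 1703.3 to 1973.5 in NTg and 9827.9 to 11497.3 in SOD1 G93A mice at 120 days, while neuronal markers summed to 22837.0 to 29841.9 and 9776.0 to 16264.8. Oligodendrocyte markers summed to 25121.7 to 32343.2 in NTg and 38993.2 to 50305.2 in SOD1 G93A mice at that age. Of 11 of these tested, 1 was higher in limma (adjusted p under 0.05) and 0 were lower. In such samples fewer cells of a type and less RNA per cell cannot be told apart.

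At 120 days Cd44 rose in the SOD1 G93A mice and no other of the 9 genes tested passed. Hapln1 was lower in every SOD1 G93A mouse than in any NTg mouse but fell just short of the threshold. Brevican was lower by a smaller amount in both of its probe sets and further from the threshold (limma adjusted p = 0.219 and 0.102). The interval of its brightest probe set included 0 (-1.07 to 0.03). The tested probe set of versican had a log2 fold change of 0.71, which did not pass either. Aggrecan, neurocan, the receptor phosphatase Ptprz1, neuroglycan C (Cspg5) and Tnr also had intervals that included 0 in their brightest probe sets. Tnc was too dim to be tested. At 90 days none of the 10 genes passed.

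In numbers, a gene was read by its brightest probe set, 9 of the 10 genes passed the filter on dim probe sets, and the threshold was an adjusted p of 0.05 over all 26132 probe sets tested. At 120 days 1 of the 9 genes was higher, where 4.14% of all 12429 genes tested were higher, and 0 were lower, where 4.47% were lower. At 90 days 0 of 9 were higher or lower, against 0.185% and 0.0402% of all genes. The rule in the methods, a 2-fold change and an unadjusted p of 0.05, was applied here to limma on the MAS5 values. By it Cd44 was higher and Hapln1 lower at 120 days, against 5.56% higher and 7.68% lower of all genes. No gene passed at 90 days, against 1.33% and 0.813%. The paper used values of another algorithm (PLIER) and reports Cd44 as up-regulated at both ages. The groups of 120 days did not overlap for Cd44 (above), where 15.3% of all genes lay wholly above, nor for Hapln1 and Bcan (below), where 20.4% lay wholly below, and at 90 days they overlapped for all 9, where 6.95% and 5.45% of all genes lay apart. Counted over the 15 member probe sets tested, 2 were higher and 0 lower at 120 days, against 3.6% and 3.86% of all probe sets, and 0 and 0 at 90 days, against 0.115% and 0.023%. By the 2-fold rule 2 were higher and 2 lower at 120 days, against 5.18% and 7.52%, and 1 was higher and 0 lower at 90 days, against 0.999% and 0.769%. After normalization 3 lay wholly above and 6 wholly below at 120 days, against 14% and 18.5%, and 0 and 0 at 90 days, against 5.74% and 5.56%. The median log2 fold change over the 9 genes was -0.11 at 120 days, beside -0.08 over all genes tested, and -0.11 at 90 days, beside 0.02. By unadjusted p, 3 of the 9 genes were under 0.05 at 120 days (Cd44, Hapln1 and Vcan), beside 27.7% of all genes tested, and 0 at 90 days, beside 6.22%.

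**Figure D1:**
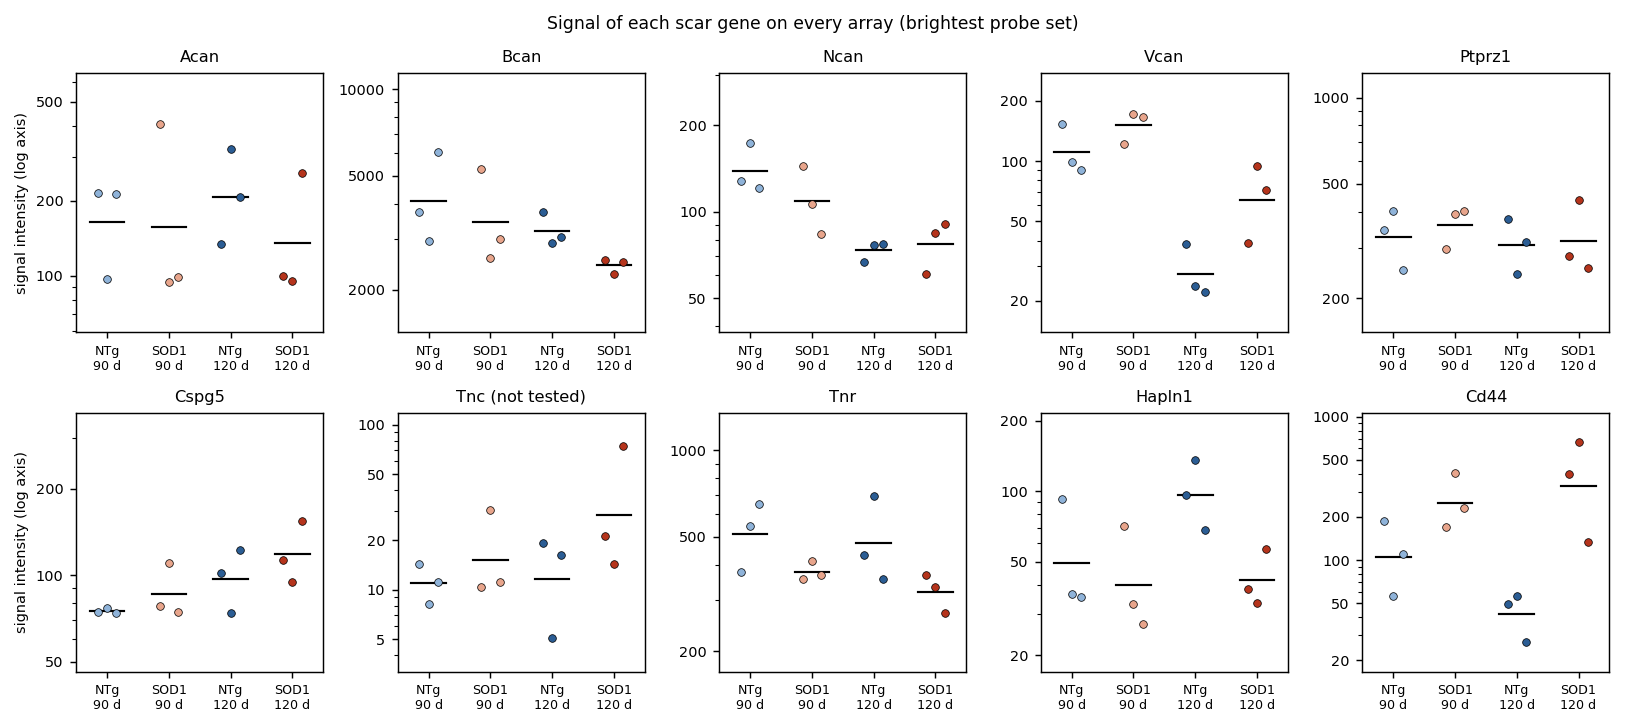
Signal intensity (log axis, a separate scale in each panel) of the brightest probe set of each of the 10 genes on all 12 GeneChips, with points for mice and lines for geometric means of the 3 mice in a group. At 120 days the SOD1 G93A mice (134.7 to 667.5) lie above the NTg mice (26.7 to 56.5) for Cd44 and below them for Hapln1 (33.4 to 57.0 against 68.6 to 135.2) and Bcan (2275.9 to 2544.1 against 2908.2 to 3734.2).

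Cd44 is the hyaluronan receptor of the group. Its brightest probe set (1423760_at) read at 120 days 400.5, 667.5 and 134.7 in SOD1 G93A and 49.7, 56.5 and 26.7 in NTg mice. Every SOD1 G93A mouse was above every NTg mouse, although replicate 3 was well below the other 2. The log2 fold change was 2.64 (SE 0.55, 95% interval 1.45 to 3.82, n = 3 and 3 mice, limma adjusted p = 0.0139). At 90 days the same probe set read 170.3, 403.1 and 232.4 in SOD1 G93A and 188.2, 56.2 and 110.5 in NTg mice. The groups overlapped through 1 NTg mouse, and the log2 fold change of 1.16 (SE 0.55, interval -0.02 to 2.35) did not pass (adjusted p = 0.906). The change between ages, 1.48 on the log2 scale, did not pass either (adjusted p = 0.579), and 0 probe sets, or 0%, passed that test in limma, although 2414 had an unadjusted p under 0.05.

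The second measurable Cd44 probe set (1434376_at) gave the same picture at 120 days. It read 230.9, 303.9 and 104.9 in SOD1 G93A and 27.0, 37.3 and 38.6 in NTg mice (log2 fold change 2.09, SE 0.52, adjusted p = 0.0291). At 90 days it read 38.0, 185.4 and 99.7 in SOD1 G93A and 58.9, 22.8 and 30.2 in NTg mice. SOD1 G93A replicate 1 lay inside the NTg range, and the log2 fold change was 1.17 (adjusted p = 0.856). This was the 1 member probe set that passed the 2-fold rule at 90 days. The other 2 Cd44 probe sets stayed between 0.4 and 6.5 on all GeneChips, under the offset of 7 added before taking logs. Without NTg replicate 3 of 120 days the call of the brightest probe set was lost (log2 fold change 2.34, adjusted p = 0.0695), and with each age fitted alone it was at adjusted p = 0.0503. The call of 1434376_at was lost without any 1 of 5 GeneChips of 120 days, all but SOD1 G93A replicate 3 (adjusted p from 0.0573 to 0.0947).

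Microglia and leukocytes carry Cd44 too, and many of their transcripts were also higher in SOD1 G93A than in NTg mice. Of the microglial markers 8 of 12 tested were higher at 120 days and 3 at 90 days, and of the markers of activated microglia and leukocytes 12 of 13 and 9 of 13. The summed signal of the second list was 258.4 to 435.1 in NTg and 6128.1 to 8366.0 in SOD1 G93A mice at 120 days. The leukocyte phosphatase Ptprc, named after its values were seen, read 126.0, 222.1 and 70.2 in SOD1 G93A and 34.0, 15.9 and 16.1 in NTg mice. Itgam, at 0.9 to 21.2 over all GeneChips, Gpr34, Cd3e, Ms4a1 and Ccr2 were under the filter. Cd44 was lowest in replicate 3 of the SOD1 G93A mice of 120 days, the GeneChip with the highest median (55.2). In replicates 1, 2 and 3 the brightest microglial markers read 3993.7, 4172.6 and 4203.0 (Csf1r), 3000.2, 3631.8 and 4272.7 (C1qb) and 712.0, 575.1 and 1031.7 (Tyrobp). The brightest of the second list read 2707.8, 2253.3 and 2118.5 (Lyz1), 479.2, 761.0 and 277.9 (Mpeg1) and 669.6, 687.0 and 473.3 (Lyz2). Some of these gaps are small. The part of microglia and leukocytes in the Cd44 signal was not tested.

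Across the 12 GeneChips the genes whose pattern lay closest to that of Cd44 were Osmr, a receptor subunit for oncostatin M, Igfbp5, which binds insulin-like growth factors, and the secreted matrix protein Ccn1. Their root mean square distances from Cd44 on the centred log2 scale were 0.49, 0.53 and 0.60, where the median over 12428 genes was 1.37. Osmr read at 120 days 486.0, 533.4 and 256.2 in SOD1 G93A and 90.6, 79.0 and 47.2 in NTg mice. Igfbp5 read 770.5, 1190.6 and 532.0 against 82.4, 54.1 and 40.8. Ccn1 read 188.6, 235.2 and 92.2 against 26.2, 27.5 and 30.3. All 3 genes had their lowest SOD1 G93A value in replicate 3, as Cd44 did. They were picked for likeness to Cd44 on these same GeneChips, so this adds nothing to the likeness. Osmr stands in the reactive astrocyte list as well.

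**Figure D2:**
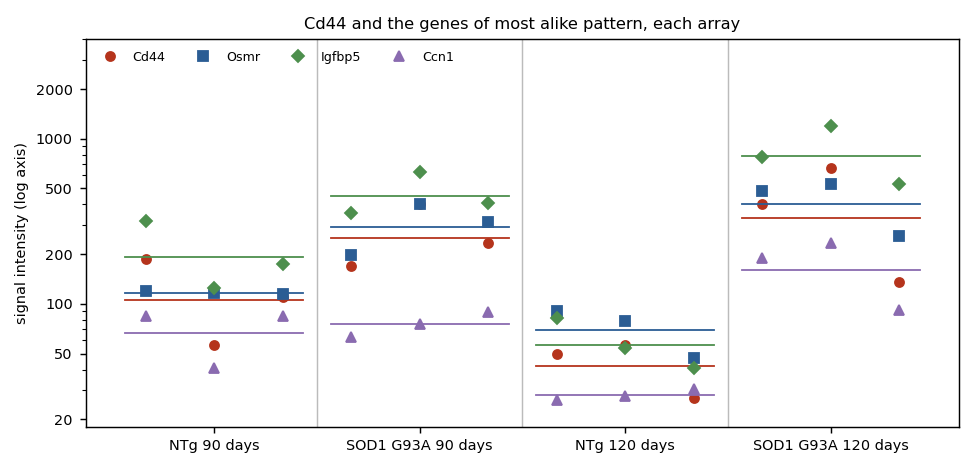
Signal intensity (log axis) of Cd44, Osmr, Igfbp5 and Ccn1 on each of the 12 GeneChips, ordered by group and replicate, with a line at each group's geometric mean. In the SOD1 G93A mice of 120 days all 4 genes are above the NTg mice and lowest in replicate 3, and at 90 days Cd44 and Ccn1 overlap between genotypes. Osmr, Igfbp5 and Ccn1 were picked for likeness to Cd44 on these same GeneChips.

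The 250 bases before the start of Cd44 and of Osmr, the closest of these genes, are shown. The reason is that both were higher in SOD1 G93A than in NTg mice at 120 days, with a like pattern. The bases (RefSeq, GRCm38.p6) are written along the gene's own strand, with CpG dinucleotides in capitals. They lie at chr2:102901666-102901915 and chr15:6874314-6874563, both on the minus strand.
Cd44: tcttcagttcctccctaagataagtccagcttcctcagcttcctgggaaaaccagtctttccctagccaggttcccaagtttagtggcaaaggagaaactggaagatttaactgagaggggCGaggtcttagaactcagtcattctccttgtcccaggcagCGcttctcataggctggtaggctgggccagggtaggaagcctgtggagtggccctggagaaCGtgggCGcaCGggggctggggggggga
Osmr: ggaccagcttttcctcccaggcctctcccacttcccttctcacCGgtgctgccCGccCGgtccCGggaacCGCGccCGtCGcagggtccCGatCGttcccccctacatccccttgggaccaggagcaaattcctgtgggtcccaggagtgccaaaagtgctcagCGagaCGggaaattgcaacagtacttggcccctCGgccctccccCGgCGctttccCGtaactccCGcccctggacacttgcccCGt
The Cd44 window holds 5 CpG and the Osmr window 18, where the median over 32851 such windows is 6. Neither window, nor that of Igfbp5, holds TGANTCA (the AP-1 motif), TTCNNNGAA (a STAT motif) or TATAAA on either strand, which occur in 6.75%, 7.02% and 12.4% of all windows, and that of Ccn1 holds TATAAA at -25.

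Hapln1, the link protein, had values of 38.4, 33.4 and 57.0 in SOD1 G93A and 96.0, 135.2 and 68.6 in NTg mice at 120 days (probe set 1438020_at). Each SOD1 G93A mouse was below each NTg mouse. The log2 fold change was -1.32 (SE 0.39, interval -2.15 to -0.48), past the 2-fold rule but not the adjusted threshold (adjusted p = 0.0562), and it passed in 8 of 23 alternative settings (adjusted p from 0.0284 to 0.237). At 90 days the values were 70.9, 33.1 and 27.3 against 92.9, 36.5 and 35.4. In both groups replicate 1 was the highest, the groups overlapped, and the log2 fold change was -0.28 (adjusted p = 1.00). The change between ages was -1.03 on the log2 scale (adjusted p = 0.582). The other 3 Hapln1 probe sets, at 0.4 to 28.8, were under the filter. Beside this, 6 of 17 neuronal markers were lower at 120 days, among them the neurofilament gene Nefl at 6818.9, 4979.4 and 4043.7 against 7819.7, 7718.3 and 10870.1, and their part in the Hapln1 signal was not tested.

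Brevican, a lectican of the adult nervous system, has 2 probe sets, and both were tested. The brighter one (1441899_x_at, a type that can bind related transcripts) read at 120 days 2544.1, 2275.9 and 2497.7 in SOD1 G93A and 3734.2, 2908.2 and 3054.7 in NTg mice, and the log2 fold change was -0.52 (SE 0.25, adjusted p = 0.219). The other (1416718_at) read 249.7, 281.7 and 266.7 against 477.3, 493.7 and 433.6, a log2 fold change of -0.63 (SE 0.23, adjusted p = 0.102). Both probe sets were lower in all 3 SOD1 G93A mice than in any NTg mouse, and neither passed. At 90 days the brighter one read 5297.0, 2588.9 and 2999.2 against 3751.9, 2973.1 and 6062.5, and the other 940.2, 693.7 and 731.4 against 1163.0, 885.7 and 1013.1. Groups overlapped in both at 90 days, and the log2 fold changes, -0.21 and -0.34, had an adjusted p of 1.00 each. The 2 mice highest on the brighter probe set, SOD1 G93A replicate 1 and NTg replicate 3, also had the highest 3′ to 5′ log2 ratio of actin at that age, 5.49 and 5.85 where the other 4 were at 3.87 to 4.77. The part of this in the Bcan signal was not tested. The smaller probe set passed without normalization between arrays (adjusted p = 0.0474) and with median centring (0.0139).

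Aggrecan, the large lectican of cartilage and perineuronal nets, has 1 probe set. It read at 120 days 99.8, 95.4 and 259.5 in SOD1 G93A and 133.7, 322.3 and 206.4 in NTg mice. At 90 days it read 406.7, 94.8 and 99.0 against 214.4, 97.2 and 214.0. Single SOD1 G93A mice were far above the rest of their group at both ages and the groups overlapped. The log2 fold changes were -0.11 at 90 days and -0.49 at 120 days, with intervals of -1.34 to 1.12 and -1.72 to 0.74 that leave a change of more than 2-fold undecided in either direction at 90 days.

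Neurocan, a lectican made by neurons and by astrocytes after injury, was read differently by its 3 probe sets. The brightest (1434679_at) read at 120 days 60.8, 84.3 and 90.4 in SOD1 G93A and 66.8, 76.7 and 77.0 in NTg mice, and 144.7, 106.3 and 84.0 against 128.1, 173.1 and 121.0 at 90 days. The groups overlapped at both ages, with log2 fold changes of -0.36 at 90 days and -0.11 at 120 days (adjusted p = 1.00 and 0.830). The second (1423604_at) read 34.2, 15 and 40.6 against 52.4, 51.3 and 48.0 at 120 days, every SOD1 G93A mouse being below every NTg mouse, and its log2 fold change of -1.08 (SE 0.41) passed the 2-fold rule but not the adjusted threshold (adjusted p = 0.121). The third (1444020_at) read 30.1, 53.6 and 88.1 against 91.7, 90.8 and 83.4 (log2 fold change -0.86, adjusted p = 0.255). All 3 fold changes were below 0 at both ages, except that the brightest probe set was at 0.072 at 120 days without normalization between arrays and 1444020_at at 0.092 at 90 days without SOD1 G93A replicate 3 of that age, none passed, and the 2 dimmer probe sets gave the larger sizes.

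Versican, which binds hyaluronan in many tissues, has 8 probe sets, of which 1 was tested. That one (1427256_at) read at 120 days 39.0, 94.1 and 71.7 in SOD1 G93A and 38.3, 23.8 and 22.3 in NTg mice. The lowest SOD1 G93A mouse and the highest NTg mouse were nearly equal, and the log2 fold change was 0.71 (SE 0.31, interval 0.05 to 1.36, adjusted p = 0.166). At 90 days it read 121.5, 171.5 and 166.1 against 152.6, 99.3 and 89.7 (log2 fold change 0.40, adjusted p = 1.00). The other 7 probe sets ranged from 0.1 to 65.7, and 49 of their 84 values were at or below the offset. Among these 1433044_at read at 120 days 29.2, 46.0 and 61.9 in SOD1 G93A and 22.2, 8.2 and 10.8 in NTg mice, without overlap but outside the test. Of the 4 lecticans, Vcan was the one whose brightest probe set had a fold change above 0 at 120 days, although that of Ncan was at 0.072 without normalization between arrays.

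Tenascin-R, made mainly by oligodendrocytes and some neurons, has 1 probe set, which read at 120 days 366.7, 335.6 and 271.1 in SOD1 G93A and 431.0, 694.0 and 356.0 in NTg mice. At 90 days it read 357.6, 411.2 and 367.9 against 378.4, 545.4 and 652.4. NTg mice were higher on average at both ages, the groups overlapped at both, and the log2 fold changes were -0.42 and -0.37 (SE 0.28 for each, adjusted p = 1.00 and 0.420). Tenascin-C, which is abundant in development and after injury, was under the filter in both of its probe sets. The brighter (1416342_at) read at 120 days 21.3, 14.4 and 74.1 in SOD1 G93A and 19.3, 5.1 and 16.2 in NTg mice. It was at 10.4, 30.4 and 11.1 against 14.3, 8.2 and 11.1 at 90 days. The highest Tnc value on any GeneChip, 74.1, was in SOD1 G93A replicate 3, the GeneChip with the highest median. The other probe set (1456344_at) read 11.8, 9.0 and 39.9 against 1.5, 0.4 and 4.7 at 120 days, all NTg values lying under the offset.

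Ptprz1, a receptor phosphatase of glial cells whose secreted form is the proteoglycan phosphacan, has 3 tested probe sets whose fold changes at 120 days differ in sign, and the brightest turned from 0.18 to -0.35 with median centring. The brightest (1452284_at) read at 120 days 280.9, 439.6 and 255.6 in SOD1 G93A and 378.6, 243.1 and 312.6 in NTg mice (log2 fold change 0.18, adjusted p = 0.717). The second (1427019_at) read 271.2, 306.9 and 306.3 against 199.0, 94 and 192.9, with all SOD1 G93A mice above all NTg mice. Its log2 fold change of 0.97 (SE 0.29, interval 0.35 to 1.59) lay just outside the threshold (adjusted p = 0.0567). The third (1418690_at) read 68.9, 89.6 and 68.0 against 171.9, 99.7 and 88.9, a log2 fold change of -0.75 (SE 0.43, adjusted p = 0.286). At 90 days the 3 probe sets overlapped between genotypes, with log2 fold changes of 0.13, -0.19 and 0.11 in the same order. The change between ages was 1.17 on the log2 scale for 1427019_at, with an unadjusted p = 0.0131 in limma and an adjusted p = 0.458. Which transcripts each probe set reads is not given by the annotation used here.

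**Figure D3:**
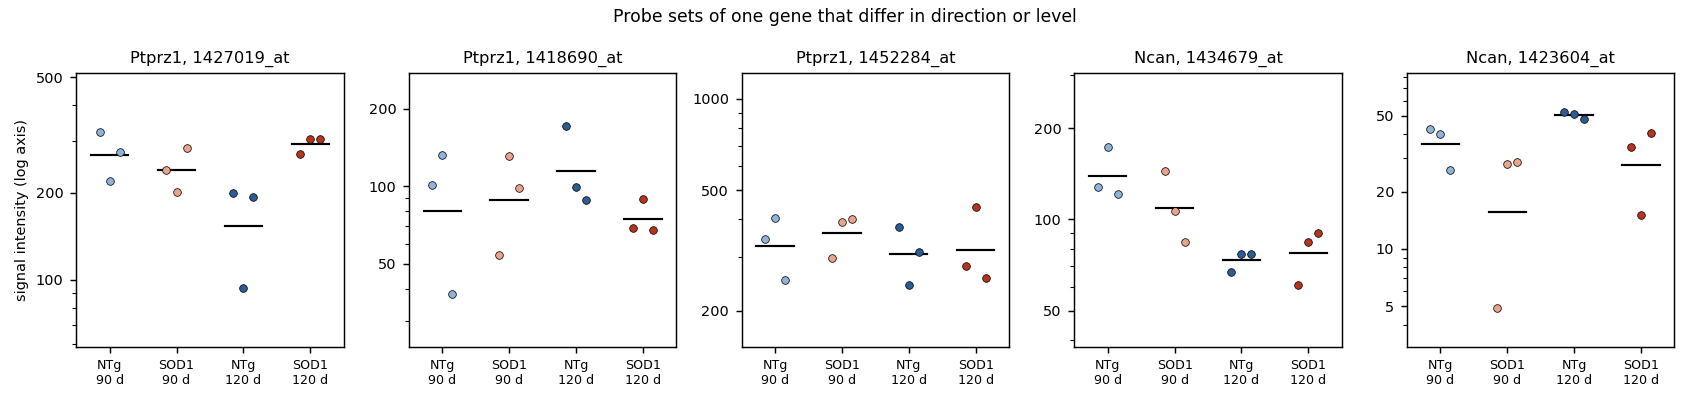
Signal intensity (log axis, a separate scale in each panel) on all 12 GeneChips for the 3 probe sets of Ptprz1 and 2 of Ncan, with points for mice and lines for geometric means. For Ptprz1 at 120 days the SOD1 G93A mice are above the NTg mice on 1427019_at and mixed with them on 1452284_at, and for Ncan they are below on 1423604_at and mixed on 1434679_at.

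Cspg5, a transmembrane proteoglycan of the nervous system, read at 120 days 112.6, 94.5 and 154.9 in SOD1 G93A and 101.8, 74.0 and 122.0 in NTg mice. It was at 78.1, 110.6 and 74.4 against 74.4, 76.6 and 73.8 at 90 days, when the NTg mice were within 2.8 units of each other. The groups overlapped at both ages, with log2 fold changes of 0.15 (interval -0.41 to 0.71) and 0.19 (interval -0.37 to 0.75), and the latter turned to -0.13 with median centring, -0.012 with array weights and -0.00059 without SOD1 G93A replicate 3 of 120 days. Ptprz1, Cspg5 and Vcan are also genes of oligodendrocyte precursors, and of 8 markers of these cells tested 0 were higher and 0 lower at either age in limma, their summed signal being 2630.6 to 4904.3 in SOD1 G93A and 3472.0 to 4381.6 in NTg mice at 120 days.

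**Figure D4:**
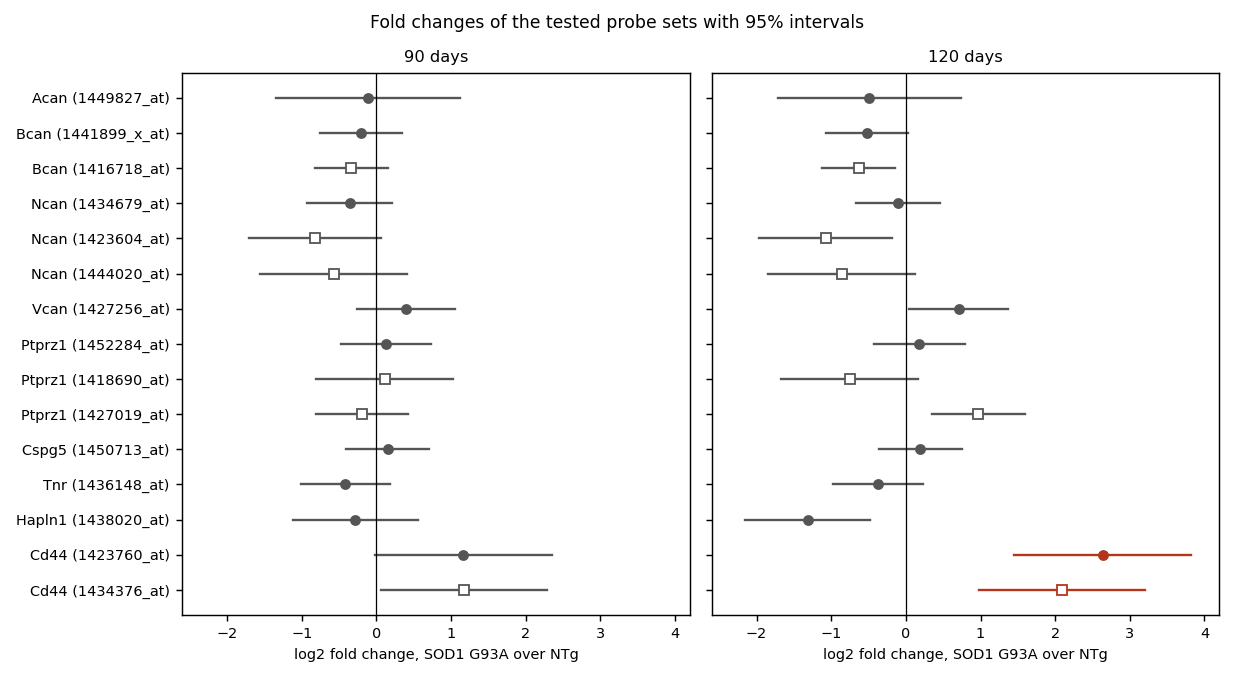
Log2 fold change between SOD1 G93A and NTg mice (3 and 3 at each age, above 0 where SOD1 G93A is higher) with 95% intervals for the 15 tested probe sets, with filled circles for the brightest probe set of a gene, open squares for the others and red for an adjusted p under 0.05. Only the 2 Cd44 probe sets at 120 days are red, and those of Bcan and Ncan all lie below 0, where the brightest of Ncan was at 0.072 at 120 days without normalization between arrays.

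Across the 4 groups, levels as deposited were ordered in few of the genes, and they are given as a description with no test, since no array batch is given for either age in the sources used here. For Bcan (1416718_at) both 90-day groups lay above both 120-day groups without overlap (120 minus 90 days, -1.11 in NTg and -1.53 in SOD1 G93A mice on the deposited log2 scale), and the SOD1 G93A mice of 120 days were the lowest. Vcan was lower at 120 than at 90 days in both genotypes, by -1.78 in NTg and -1.15 in SOD1 G93A mice on that scale. Cd44 (1423760_at) ran from SOD1 G93A at 120 days through SOD1 G93A and NTg at 90 days to NTg at 120 days, and each neighbouring pair in that order overlapped. Its difference, 120 minus 90 days, was -1.19 in NTg and 0.39 in SOD1 G93A mice. On 1434376_at the difference was -0.03 in NTg and 1.05 in SOD1 G93A mice. The ages overlapped in both genotypes on both probe sets. For Acan, Cspg5, Tnr, Hapln1 and the brightest probe sets of Ncan and Ptprz1 all neighbouring groups overlapped. Groups that were not neighbours could still lie apart. In NTg mice Ncan was wholly lower at 120 than at 90 days on 1434679_at (-0.86). On 1423604_at and 1444020_at it was wholly higher (0.43 and 1.12). In SOD1 G93A mice the ages overlapped on each of these Ncan probe sets.

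Lists of genes that build, hold or cut this matrix are counted beside the 4.14% higher and 4.47% lower of all genes tested at 120 days, with no test of the lists. Of the 15 genes tested for chondroitin and dermatan sulfate chain synthesis 0 were higher and 1 was lower at 120 days. This was Chst15, a chondroitin sulfotransferase, which read 127.6, 143.8 and 57.3 in SOD1 G93A and 204.7, 357.4 and 282.1 in NTg mice (log2 fold change -1.44, adjusted p = 0.0367). The list's median log2 fold change was -0.49, beside -0.08 over all genes, and 5 of its 15 genes lay wholly below the NTg mice, as 20.4% of all genes did. At 90 days none of the 15 passed.

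Of 15 genes of hyaluronan synthesis, binding and breakdown 2 were higher and 3 lower at 120 days, and 0 passed at 90 days. Itih3, an inter-alpha-trypsin inhibitor chain that binds hyaluronan, read 330.5, 242.7 and 226.8 in SOD1 G93A and 1220.4, 1165.1 and 1469.8 in NTg mice (log2 fold change -2.15, adjusted p = 0.00633). Hapln4, a brain link protein of perineuronal nets, read 111.5, 72.7 and 95.4 against 179.6, 402.0 and 244.0 (-1.46, adjusted p = 0.0154). Both lay below the NTg mice without overlap, as Hapln1 did. Itih5 (1.19) and the hyaluronan receptor Hmmr (1.18) were the higher genes, the latter by a probe set of the x_at type. The fifth, the hyaluronan synthase Has3, was at 1.7, 27.5 and 5.3 against 23.1, 42.4 and 54.0, and was named after its values were seen.

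Of 13 genes tested among the proteases that cleave lecticans and their inhibitors, 2 were higher and 1 lower at 120 days and 1 was higher at 90 days. Timp1, an inhibitor of metalloproteinases, read at 120 days 204.0, 202.4 and 186.6 in SOD1 G93A and 15.2, 11.1 and 9.2 in NTg mice (log2 fold change 3.27, adjusted p = 0.000447), and 108.8, 129.9 and 135.2 against 20.3, 4.1 and 0.5 at 90 days (3.26, adjusted p = 0.00253). Mmp2, which can cleave brevican, read 180.6, 246.0 and 281.8 against 78.0, 31.3 and 21.1 at 120 days (2.3, adjusted p = 0.00629). Mmp9 was lower at 120 days (-1.61, adjusted p = 0.0293), at 45.9, 32.3 and 86.4 against 101.9, 182.4 and 203.5.

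Of 23 receptors and ligands 1 was higher at 120 days, a share close to the 4.14% of all genes, and 0 were lower. The 1 gene was midkine (Mdk), a ligand of Ptprz1, at 146.3, 134.4 and 209.6 in SOD1 G93A and 93.9, 72.4 and 58.7 in NTg mice (log2 fold change 1.00, adjusted p = 0.0414). Of 23 other proteoglycans 2 were higher and 1 lower. Fibromodulin (Fmod) read 1637.9, 2033.9 and 2918.5 against 137.3, 160.0 and 171.4 at 120 days (3.67, adjusted p = 0.00653), but at 90 days its NTg mice spread from 215.7 to 3255.2. Against NTg mice of 120 days, the heparan sulfate proteoglycan Sdc4 was higher by 1.93 on the log2 scale and Spock3 lower by 1.91. Mean deposited signals of Sdc4 were 808.7 at 90 days and 589.1 at 120 days with the transgene, against 653.4 and 159.3 without it. For Spock3 they were 67.6 and 76.6 against 133.5 and 252.3. Of 17 genes tested in the list of other glycoproteins of reactive and scar matrix 5 were higher and 0 lower. They were Lgals3 (6.51), Vim (2.77), Nes (2.03), Tgfbi (1.15) and, named after its values were seen, Postn (2.03). The list is wider than its name, since Vim and Nes code for intermediate filaments and Lgals3 for a lectin. Vim is counted in the reactive astrocyte list too, as is Timp1 of the proteases and their inhibitors. Lgals3 is also a gene of activated microglia.

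Of 18 reactive astrocyte markers other than Cd44, 12 were higher at 120 days and 2 at 90 days, and none was lower. Their median log2 fold change was 2.33 at 120 days and 0.89 at 90 days. Gfap, the intermediate filament of reactive astrocytes, read at 120 days 3989.5, 5365.1 and 3253.3 in SOD1 G93A and 109.2, 231.4 and 102.3 in NTg mice (4.79, limma adjusted p = 0.000123). At 90 days it read 5747.3, 5716.8 and 5334.0 against 2508.2, 784.6 and 3302.8 (1.66, adjusted p = 0.365). As deposited, the NTg mice were thus lower at 120 than at 90 days, and the SOD1 G93A mice were not higher.

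**Figure D5:**
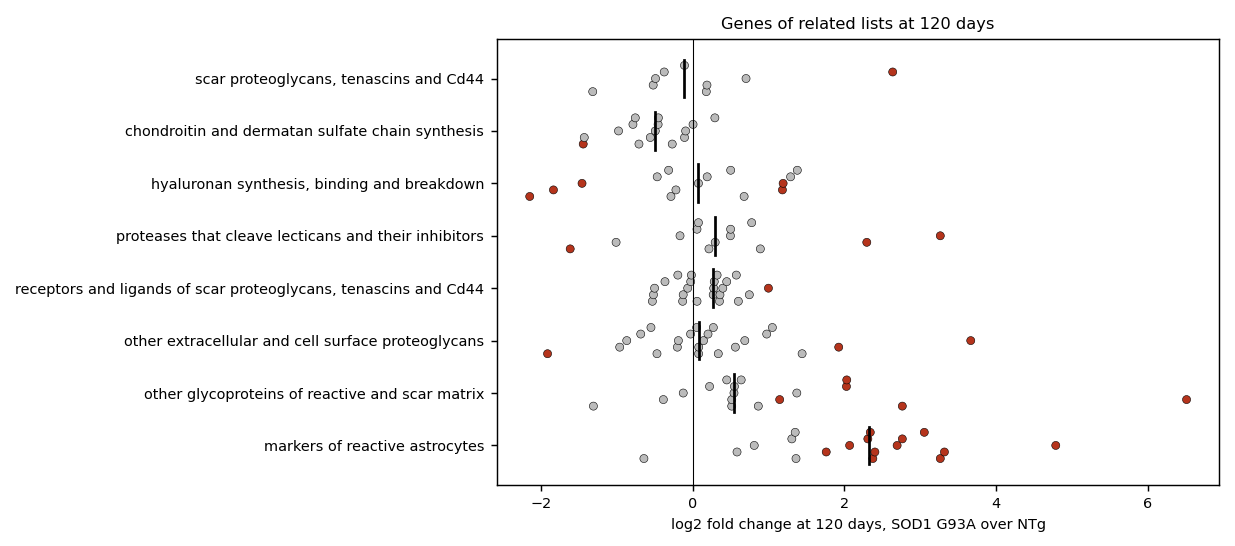
Log2 fold change at 120 days between SOD1 G93A and NTg mice (3 and 3, above 0 where SOD1 G93A is higher) of every tested gene of each list, Cd44 being left out of the reactive astrocyte list, red for an adjusted p under 0.05 and a line at the list's median. The reactive astrocyte markers have a median of 2.33 and the 9 scar genes tested a median of -0.11, with Cd44 the one red point.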

How the data were processed

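The authors deposited linear signal intensities, made with MAS5 from amplified RNA and scaled to a trimmed mean of 100. The labels describe toluidine blue staining and MAS5, whereas the methods describe ALDH1L1 staining and PLIER values, which were not used here. The deposited values were taken as log2 (intensity + 7), 7 being the 20th percentile of all values, quantile-normalized within each age, and fitted with 4 group means in limma 3.58.1 under R 4.3.3 (Benjamini-Hochberg). Probe sets above their array's median on at least 3 GeneChips were tested. Fold changes on this scale understate those of dim probe sets. Control probe sets (64) were left out. The annotation gave 1 symbol to 34958 probe sets, several to 932 and none to 9211, and only the first were named. Genes named were all 10 scar genes with every probe set, at most 4 passing genes of each list by p at 120 days and the 3 genes nearest to Cd44. Cell markers were named by signal, at most 3 of a list, except Gfap (named in its list) and Ptprc, Itgam and those under the filter, named after their values were seen. The scar genes and the lists were chosen with earlier results of these data known. The number of GeneChips limits the precision. The code was tested on simulated data.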

Additional observations from a re-analysis of the deposited data

How the results depend on the processing

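Replicate numbers recur in each group, and no source used here says that they pair the mice. Same-numbered mice had correlations of deviations of -0.27, 0.28 and -0.28 at 90 days and -0.07, 0.04 and -0.01 at 120 days. Differently numbered mice of 90 days had -0.36 to 0.46. So few pairs cannot exclude a pairing, and the main fit did not use the numbers. With the replicate number as a block 17 probe sets passed at 90 days and 1063 at 120 days, where 36 and 1948 passed without it, and the Cd44 probe set 1434376_at no longer passed (adjusted p = 0.0612). At 90 days 68 passed with the offset at the 50th percentile, 22 with no filter, 13 with each age alone and 131 with array weights, and 12 to 55 without 1 array (12, 16 and 20 without SOD1 G93A replicate 3, 2 or 1 and 13 and 21 without NTg replicate 2 or 3 of that age, and 55 without SOD1 G93A replicate 3 of 120 days). At 120 days the counts were 3500 with median centring, 2953, 1244 and 759 with the first 3 of those settings, and 467 to 2424 without 1 array (467, 594 and 1041 without NTg replicate 2, 3 or 1 and 1101 without SOD1 G93A replicate 3 of 120 days). The difference between ages had 0, and 3 with the higher offset, 20 with a trended and robust prior and 0 to 11 without 1 array (11 without NTg replicate 2 of 90 days). Median centring moved the median log2 fold change of all probe sets at 120 days from -0.07 to -0.33 and the share of higher among passing probe sets from 48.3% to 19%. Cd44 passed at 120 days in 22 of 24 alternatives. The count of scar genes higher was 0 with each age alone and 0 to 1 without 1 array, since NTg replicate 3 of 120 days decided it. The second Cd44 probe set was lost in 7 of 23, with no filter (adjusted p = 0.0503), with the block and without any of 5 arrays of 120 days. Hapln1 passed as 1 gene lower in 8 of 23 (adjusted p 0.0284 to 0.237 over all), namely with quantile normalization over all 12 arrays, median centring, the higher offset, the block, the trended and robust prior, the mean of a gene's probe sets and without SOD1 G93A or NTg replicate 1 of 90 days (0 to 1 gene without 1 array). Ptprz1 1427019_at passed in 4 of 23. Signs turned only where nothing passed. Ncan at 120 days was 0.072 as deposited, Ptprz1 at 120 days was -0.35 and Cspg5 -0.13 with median centring, and with array weights Cspg5 at 120 days was -0.012 and Ptprz1 1418690_at at 90 days -0.013. Without 1 array the ranges were -0.80 to 0.26 for Acan, -0.027 to 0.26 for Ptprz1, -0.66 to 0.11 for Hapln1, -0.92 to 0.092 for Ncan 1444020_at and -0.39 to 0.46 for Ptprz1 1418690_at at 90 days, and -0.038 to 0.34 for Ptprz1 and -0.00059 to 0.37 for Cspg5 at 120 days. No value could be had for the difference with each age alone, for counts of probe sets and single probe sets with gene means, or for Hapln1 and the 2 dimmer Ncan probe sets with a filter at the 75th percentile. Of the values of the untested probe sets 9 of 24 for Tnc and 49 of 84 for Vcan were at or below the offset of 7. Differences among such values are not read.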
